A study of Mus musculus with 9 samples.

Results

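The HSP40 proteins, also called J-domain or DNAJ proteins, were followed as messenger RNA in mouse mast cells. The members were all genes of the deposited tables whose symbol is Dnaja, Dnajb or Dnajc followed by a number. There were 41 of them among 15109 genes, 4 of class A, 12 of class B and 25 of class C, and all 41 could be tested. GENCODE M21 lists 43 genes of this naming pattern, and Dnajb3 and Dnajc22 were not analysed here. The cells were bone marrow-derived mast cells of wild-type C57BL/6 mice, sequenced in 3 groups of 3 libraries. In the Taxinine group the cells received taxinine, a taxane diterpenoid from yew, for 1 h before antigen. In the BSA group they were sensitised with IgE against dinitrophenyl (DNP) and challenged with DNP-BSA, serum albumin that carries this hapten and crosslinks the IgE receptor. Cells of the Taxinine group received the same IgE and antigen, and cells of the Control group were untreated. Before use, all cells spent 4 weeks or more in culture with 20% fetal bovine serum and 30% conditioned medium of WEHI-3 cells, a source of interleukin 3. Neither the taxinine dose, a vehicle, the time of antigen exposure nor a group with taxinine alone is given in the labels. They do not say whether the libraries of a group came from separate animals or cultures, so p-values here describe the spread among these libraries, and that spread may be technical.

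A J domain makes HSP70 chaperones hydrolyse ATP and so grip their unfolded clients, and each DNAJ protein brings HSP70 to its own clients or to its own place in the cell. Class A proteins carry a glycine- and phenylalanine-rich stretch and a zinc-binding domain beside the J domain, class B proteins lack the zinc-binding domain, and class C proteins share little beyond the J domain itself. Some members are textbook targets of the heat shock response (Dnajb1, Dnaja1, Dnajb4) or of the unfolded protein response of the endoplasmic reticulum (Dnajb9, Dnajb11, Dnajc3), and mast cells make and store large amounts of secretory protein.

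Libraries held 8975371 to 13829804 counts in Taxinine, 11680348 to 14005776 in BSA and 13712274 to 14116976 in Control. Among the 30 members with a mean of at least 100 counts over the 9 libraries, the median coefficient of variation within a group was 3.93%. No member was at 0 in any library, and Dnajb7, Dnajb8 and Dnajc28 stayed under 20 counts in every library. Values are CPM, the counts brought to a common depth, with library totals adjusted by TMM, a trimmed mean of M values. All 9 mast cell markers were detected, with a summed level of 39930 to 40940 CPM in Taxinine, 40100 to 41850 CPM in BSA and 37860 to 39000 CPM in Control. Cpa3 and Tpsb2 made up most of this sum, and single markers moved within it. Hdc, which makes histamine, averaged 1142, 1208 and 195 CPM and Ms4a2, a subunit of the IgE receptor, 1617, 1713 and 2179 CPM in Taxinine, BSA and Control. In Taxinine against BSA, Gata2 and Mitf were called lower, at log2 fold changes of -0.16 ± 0.04 and -0.19 ± 0.06, the call of Mitf being lost in 8 of 16 alternatives. The 3 basophil markers summed to 717 to 747 CPM in Taxinine, 756 to 811 in BSA and 808 to 873 in Control. Of these, Mcpt8 averaged 71.8, 91.8 and 77.4 CPM in the same groups and was called lower in Taxinine against BSA, and Cd200r3 averaged 655, 699 and 770.0 CPM. The 6 macrophage markers analysed summed to 62.8 to 65.7 CPM in Taxinine, 66.0 to 72.1 in BSA and 59.4 to 60.9 in Control, with Adgre1 called higher in BSA against Control, a call lost in 6 of 16 alternatives. The eosinophil marker Siglecf had 11.3 to 13.3 CPM in Taxinine, 13.9 to 17.0 CPM in BSA and 3.50 to 5.38 CPM in Control, and the part of these marker shifts in the results below was not tested. The 1 neutrophil, 1 erythroid and 1 B cell marker analysed stayed under 1 CPM in every library, and markers of T cells and stroma were not analysed here.

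On the TMM scale, class A and class B members were mostly higher after antigen and class C members mostly were not. In BSA against Control, 13 members rose and 6 fell, a call being an adjusted p under 0.05 in edgeR's quasi-likelihood test with Benjamini-Hochberg adjustment over all 15109 genes. Those 13 are 31.7% of the members, beside 16.2% of all genes called higher, and the 6 are 14.6% of the members, beside 17.8% of all genes called lower. By class, 3 of 4 class A members rose and 1 fell, 8 of 12 class B members rose and 1 fell, and 2 of 25 class C members rose and 4 fell. The median log2 fold change was 0.42 in class A, 0.64 in class B and -0.04 in class C, against -0.00 over all genes. In bulk RNA, fewer cells of a type and less RNA per cell cannot be told apart.

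These counts depend on how libraries are scaled. With plain library totals the median log2 fold change of all genes in BSA against Control moved to -0.23. There 8 members were called higher and 20 lower, beside 1081 and 6896 of all 15109 genes. With limma on the deposited log2 values, which rest on plain totals, 8 were higher and 19 lower, beside 1070 and 6782 genes. Dnaja1, Dnaja4, Dnajb1, Dnajb2, Dnajb4, Dnajb6, Dnajb9 and Dnajb13 were higher under all 16 alternatives, and Dnajc4, Dnajc7, Dnajc16 and Dnajc28 lower under all 16. The other 5 rises (Dnaja2, Dnajb11, Dnajb12, Dnajc3, Dnajc21) were lost under plain totals. Among the 22 members not called, the 13 with a mean of at least 100 counts had log2 fold changes between -0.08 (Dnajc5) and 0.12 (Dnajc24).

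**Figure D1:**
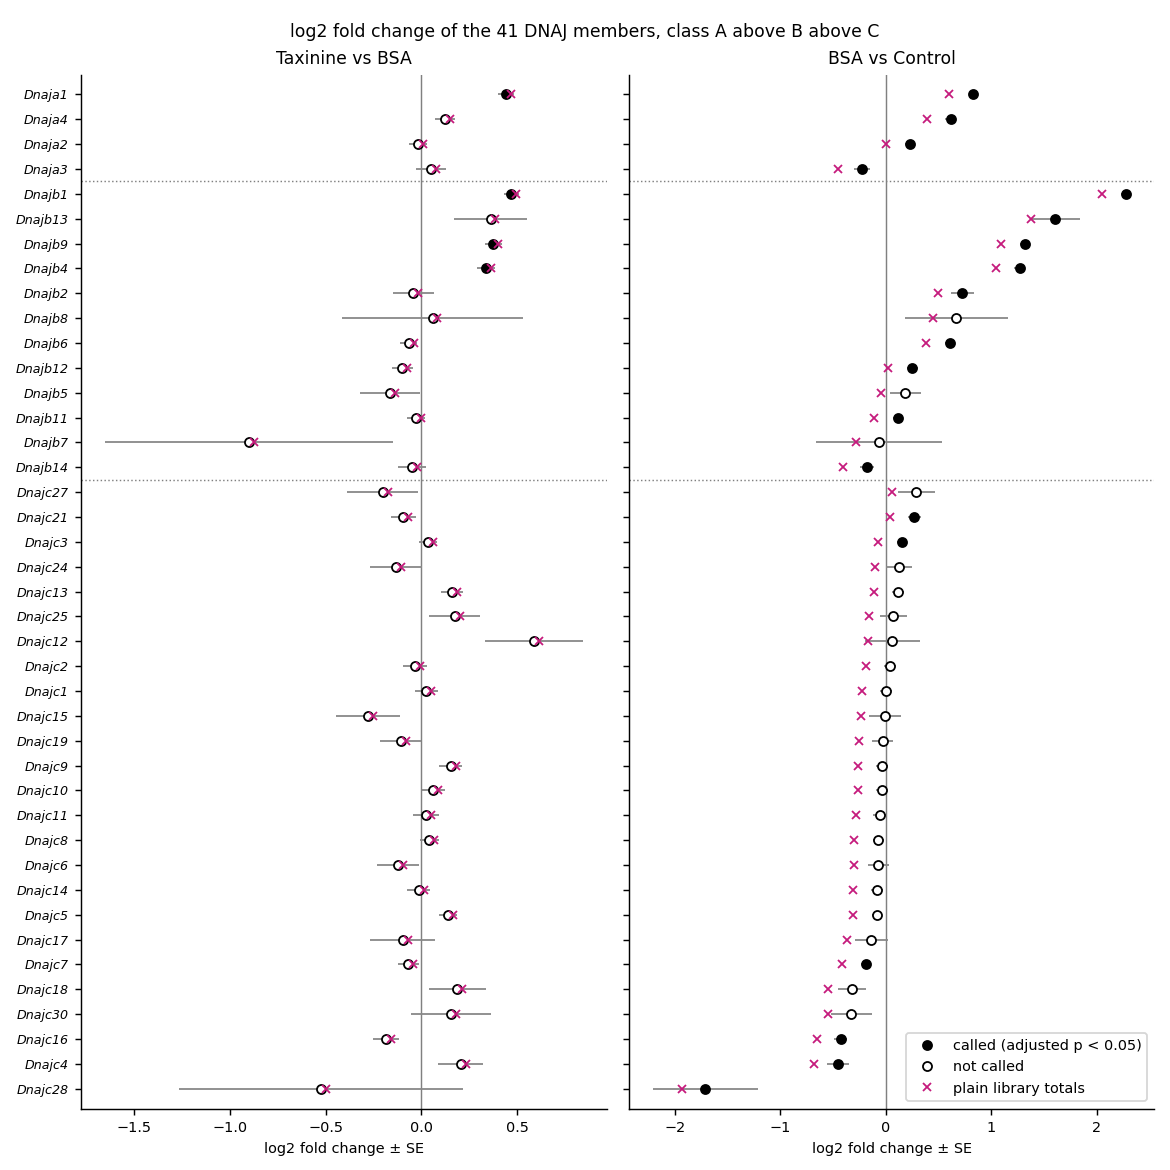
log2 fold change of the 41 DNAJ genes (x axis) for Taxinine against BSA on the left and BSA against Control on the right, with bars of 1 standard error, filled circles for called genes and crosses for the same fit on plain library totals. The x axes differ between the panels. After antigen 8 of 12 class B genes were called higher on the TMM scale, and with plain totals every point of the right panel lies further left.

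Fewer members differed between the 2 antigen-exposed groups. In Taxinine against BSA, Dnajb1, Dnaja1, Dnajb9 and Dnajb4 rose, at folds of 1.39, 1.36, 1.30 and 1.26, and no member fell by edgeR's quasi-likelihood test. The 4 are 9.76% of the members, beside 2.86% of all genes called higher, and 4.12% of all genes were called lower. At an unadjusted edgeR p under 0.05, 5 further members were higher (Dnaja4, Dnajc5, Dnajc9, Dnajc12, Dnajc13) and 1 was lower (Dnajc16). The share of all genes passing this unadjusted limit was not computed, so nothing is read from this count. DESeq2 called 4 members higher and 0 lower, beside 289 and 526 of all genes. With limma on the deposited log2 values 7 were higher and 0 lower, beside 710 and 489 of all genes. All 4 calls held under each of the 16 alternatives. The 26 other members with a mean of at least 100 counts lay between -0.19 (Dnajc16) and 0.21 (Dnajc4) on the log2 fold change scale. Over the 41 members the median log2 fold change was 0.03, against 0.00 over all genes.

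Taxinine against Control uses the same Control libraries as BSA against Control, so the 2 lists are not independent. There 14 members rose, 34.1% of them beside 15.9% of all genes, and 4 fell, 9.76% beside 17.2% of all genes. With plain totals these counts were 8 and 19, beside 1105 and 6281 of all 15109 genes. The 8 members with a rise under all 16 alternatives were those named for BSA against Control. Dnajc7, Dnajc16 and Dnajc28 were lower under all 16.

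Summed over the family, the DNAJ messages amounted to 1016 ± 17.5 CPM per kilobase (kb) of exon in Taxinine, 862 ± 7.14 in BSA and 534 ± 7.45 in Control (SD, n = 3 each). Most of the difference was class B, which summed to 622 ± 19.8 CPM per kb in Taxinine, 492 ± 8.63 in BSA and 192 ± 5.86 in Control. Class A summed to 151 ± 1.87, 134 ± 1.66 and 98.1 ± 3.01 CPM per kb in Taxinine, BSA and Control. Class C stood at 243 ± 5.23, 236 ± 5.21 and 244 ± 2.37 CPM per kb in the same groups, and the range of each group overlapped those of the others. With plain totals class C stood at 233 ± 5.33, 223 ± 4.26 and 269 ± 2.45, where Control was highest. Class A and class B kept the order Taxinine, BSA, Control on either scale. As a share of the family's own sum, which library scaling cannot change, class B held 61.3% ± 1.01 in Taxinine, 57.0% ± 0.683 in BSA and 36.0% ± 0.674 in Control. Dnajb1 alone held 38.0% ± 0.928, 32.3% ± 0.907 and 10.8% ± 0.309 in Taxinine, BSA and Control, without overlap between groups. Without Dnajb1 the sums were 630 ± 7.16, 583 ± 5.92 and 476 ± 5.12 CPM per kb in Taxinine, BSA and Control. With 3 libraries against 3, an exact permutation test of such a sum cannot go below p = 0.1, so none was run.

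**Figure D2:**
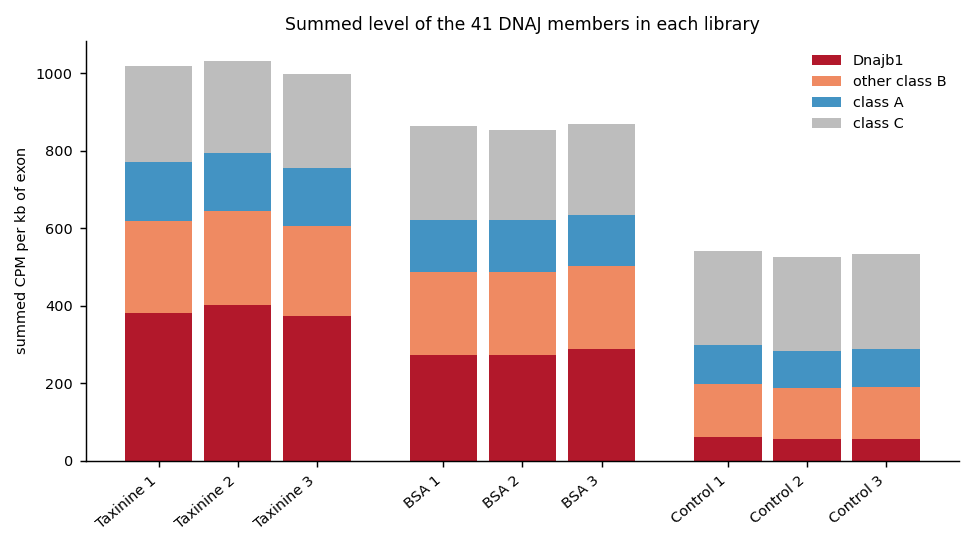
Summed level of the 41 DNAJ genes in each library (y axis, CPM per kb of exon), stacked into Dnajb1, the other class B genes, class A and class C. Taxinine libraries reach 997 to 1032, BSA libraries 854 to 868 and Control libraries 527 to 541, while the class C block stays between 232 and 248 in all 9 on this TMM scale.

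Dnajb1, the major heat-inducible cytosolic HSP40, lies at chr8:83608193-83612653 on the plus strand (GRCm38, here and below). It had 1221, 1290 and 1196 CPM in the Taxinine libraries, 874, 876 and 928 CPM in BSA and 193, 178 and 182 CPM in Control. The 3 groups were fully separated, with the Taxinine libraries on top. The log2 fold change was 2.28 ± 0.04 (SE) for BSA against Control, a 4.85-fold rise with an edgeR adjusted p of 2.07e-36, and 0.47 ± 0.04 for Taxinine against BSA, with an edgeR adjusted p of 3.48e-11. Taxinine against Control came to 2.75 ± 0.04, or 6.72-fold.

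Dnajb4, a close cytosolic relative of Dnajb1 (chr3:152178511-152210302, minus strand), had 150, 157 and 155 CPM in Taxinine, 122, 126 and 118 CPM in BSA and 50.6, 49.3 and 52.1 CPM in Control. It showed the same order of groups, again with no overlap. Its log2 fold change was 1.27 ± 0.05 for BSA against Control (edgeR adjusted p = 3.93e-24) and 0.34 ± 0.05 for Taxinine against BSA (edgeR adjusted p = 3.32e-06). Dnajb5, the last of the canonical cytosolic class B genes, did not follow them. It averaged 5.48 ± 0.638 CPM in Taxinine, 6.24 ± 0.367 in BSA and 5.48 ± 0.713 in Control (SD, n = 3 each) and was not called in any comparison.

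Among class A, Dnaja1, a farnesylated cytosolic partner of HSC70 (chr4:40722150-40737149, plus strand), had 453, 462 and 470.4 CPM in Taxinine, 337, 348 and 335 CPM in BSA and 198, 181 and 196 CPM in Control. Every Taxinine library lay above every BSA library, and every BSA library above every Control library. The log2 fold change was 0.83 ± 0.04 for BSA against Control (edgeR adjusted p = 3.05e-20) and 0.44 ± 0.04 for Taxinine against BSA (edgeR adjusted p = 3.4e-10). Dnaja4 had 144, 139 and 136 CPM in Taxinine, 124, 137 and 123 CPM in BSA and 89.5, 81.6 and 79.8 CPM in Control. Its BSA libraries stood above Control by a log2 fold change of 0.61 ± 0.05 (edgeR adjusted p = 4.29e-13), and its Taxinine and BSA ranges overlapped. Exons of Dnaja1 share 608 bases with Smu1, and exons of Dnaja4 share 1581 bases with Wdr61. The strand setting of the counting is not given, so reads in shared bases may have been given to either gene.

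The remaining class A genes moved little. Dnaja2, the other general cytosolic class A member, had 155, 149 and 149.7 CPM in Taxinine, 157, 148 and 154 CPM in BSA and 132, 127 and 134 CPM in Control. Its rise in BSA against Control, a log2 fold change of 0.22 ± 0.05 (edgeR adjusted p = 0.000109), was -0.00 with plain totals. Dnaja3, the mitochondrial class A protein also known as Tid1, had 32.3, 30.7 and 27.1 CPM in Taxinine, 30.7, 27.4 and 28.4 CPM in BSA and 34.0, 34.2 and 32.9 CPM in Control. It was the only class A gene lower in BSA than in Control, by a log2 fold change of -0.22 ± 0.07 (edgeR adjusted p = 0.0134), a call lost with DESeq2 and without BSA replicate 2.

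**Figure D3:**
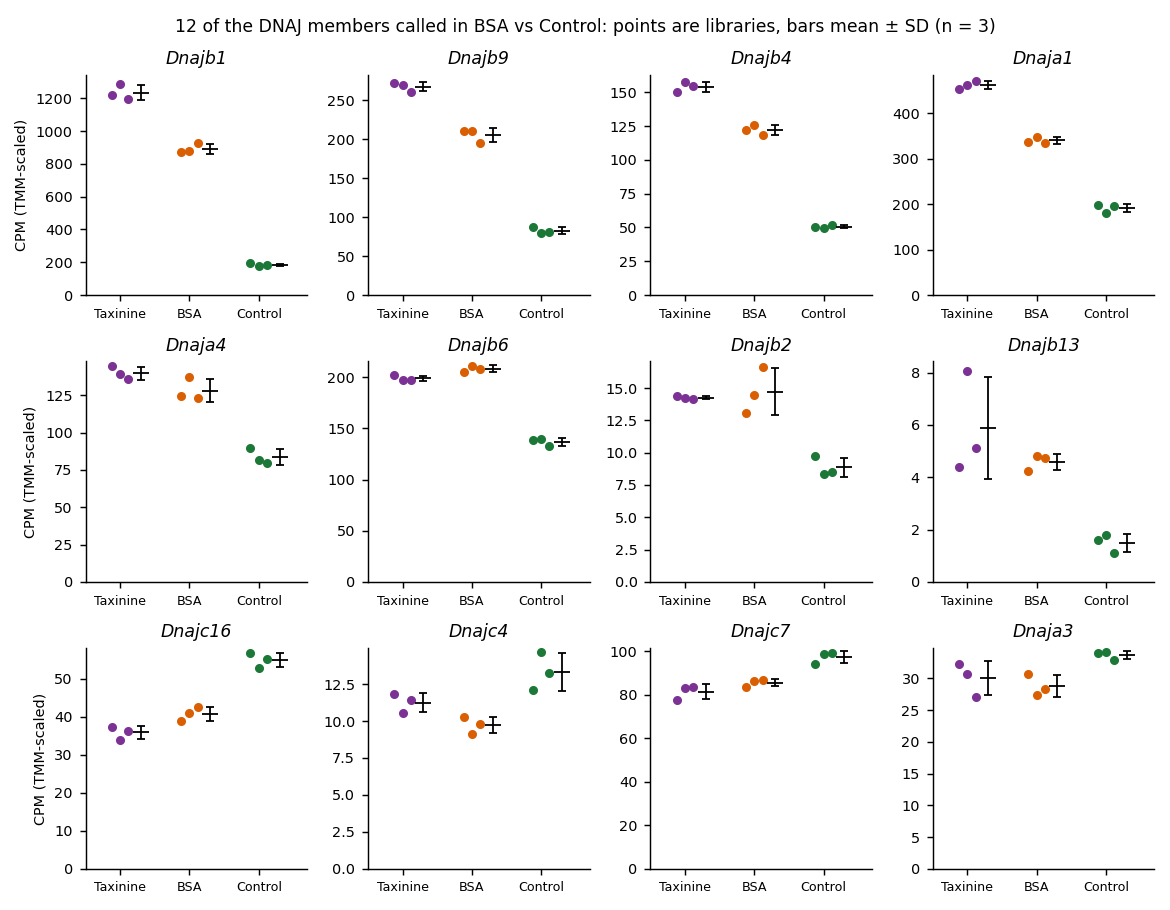
CPM on TMM-scaled totals (y axes, from 0) of 12 called DNAJ genes in each Taxinine, BSA and Control library, with the mean and SD of each group (n = 3). Dnajb1, Dnajb9, Dnajb4 and Dnaja1 form 3 steps with Taxinine highest, Dnajb6 and Dnajb2 have Taxinine and BSA values above Control, and Dnajc16 is lowest in Taxinine.

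Dnajb6 and Dnajb2 rose after antigen and were not called between Taxinine and BSA. Dnajb6, a suppressor of polyglutamine aggregation, had 202, 197 and 197 CPM in Taxinine, 205, 211 and 208 CPM in BSA and 138, 139 and 133 CPM in Control. Both antigen-exposed groups stood above Control without overlap. Its log2 fold change was 0.61 ± 0.04 for BSA against Control (edgeR adjusted p = 2.13e-15), and -0.07 ± 0.04 for Taxinine against BSA was not called. The table also lists Dnajb6-ps, a pseudogene copy, with 0 to 9 counts a library, whereas Dnajb6 had 1744 to 2696 counts a library. Dnajb2, known from neurons as a link between HSP70 and the ubiquitin system, had 14.4, 14.3 and 14.1 CPM in Taxinine, 13.1, 14.5 and 16.6 CPM in BSA and 9.72, 8.38 and 8.50 CPM in Control. All treated libraries exceeded all Control libraries, by a log2 fold change of 0.72 ± 0.11 in BSA against Control (edgeR adjusted p = 5.34e-07).

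Dnajb13 is known as a part of the radial spoke of sperm flagella and cilia. It had 4.40, 8.08 and 5.14 CPM in Taxinine, 4.25, 4.81 and 4.73 CPM in BSA and 1.59, 1.79 and 1.11 CPM in Control. The antigen-exposed groups overlapped each other and stood above Control, with a log2 fold change of 1.61 ± 0.23 for BSA against Control (edgeR adjusted p = 2.29e-07). Its exons share 305 bases with Ucp2 on the opposite strand, a gene at 398 ± 14.1 CPM in Taxinine, 407 ± 9.08 in BSA and 328 ± 9.62 in Control (SD, n = 3 each) that was itself called higher in BSA against Control, a call lost with plain totals. How many of the Dnajb13 reads fell in the shared bases was not tested. Dnajb7 had 6, 13 and 17 counts in all of Taxinine, BSA and Control, and Dnajb8, a relative of Dnajb6, had 26, 28 and 22; neither was called.

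Among the 10 members placed in the endoplasmic reticulum, 4 rose and 2 fell in BSA against Control. Of all genes, 16.2% were called higher and 17.8% lower. The median log2 fold change of the 10 members was 0.03. Dnajb9, or ERdj4, a target of the spliced form of XBP1 and a repressor of the sensor IRE1 (chr12:44205559-44210326, minus strand), had 272, 269 and 261 CPM in Taxinine, 210.4, 210.6 and 196 CPM in BSA and 87.7, 79.1 and 80.2 CPM in Control. Groups did not overlap, and the log2 fold change was 1.32 ± 0.05 for BSA against Control (edgeR adjusted p = 1.18e-25) and 0.38 ± 0.05 for Taxinine against BSA (edgeR adjusted p = 1.11e-07). The other rises were small. Dnajb12, an endoplasmic reticulum membrane protein, averaged 72.6 ± 2.80, 77.9 ± 3.78 and 65.3 ± 1.50 CPM in Taxinine, BSA and Control (SD, n = 3 each), a log2 fold change of 0.25 ± 0.05 for BSA against Control that was 0.03 with plain totals. For Dnajc3, the inhibitor of the eIF2α kinases PERK and PKR, the means were 174 ± 8.66, 169.5 ± 6.33 and 152 ± 5.63 CPM, and for Dnajb11, the soluble BiP partner ERdj3, 162 ± 5.44, 165 ± 5.63 and 152 ± 1.36 CPM in the same groups. Their log2 fold changes in BSA against Control, 0.16 ± 0.05 and 0.12 ± 0.05, were -0.07 and -0.11 with plain totals, where edgeR called Dnajb11 lower with an adjusted p of 0.0349. The rise of Dnajb11 was also lost in 9 other alternatives, among them the replicate block and 7 of the fits without 1 library.

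The largest fall in the endoplasmic reticulum list was Dnajc16, or ERdj8, with 37.4, 33.9 and 36.4 CPM in Taxinine, 38.9, 41.1 and 42.6 CPM in BSA and 56.8, 52.9 and 55.3 CPM in Control. Both antigen-exposed groups lay below Control, with a log2 fold change of -0.43 ± 0.06 for BSA (edgeR adjusted p = 2.18e-07) and -0.62 ± 0.06 for Taxinine (edgeR adjusted p = 1.15e-10). Taxinine libraries were also all below BSA libraries, but -0.19 ± 0.07 between them was not called (edgeR adjusted p = 0.0927). Dnajb14, the membrane partner of Dnajb12, averaged 44.4 ± 3.72, 45.7 ± 4.46 and 51.9 ± 3.93 CPM in Taxinine, BSA and Control, with overlapping BSA and Control ranges, and its fall of -0.18 ± 0.07 was lost in 7 of 16 alternatives. Dnajc1, Dnajc10, the disulfide reductase ERdj5, Dnajc18 and Dnajc25 were not called in any comparison on the TMM scale. With plain totals, edgeR called Dnajc1, Dnajc10 and Dnajc18 lower in BSA against Control, at -0.228, -0.268 and -0.548. The median of all genes was -0.23 with these totals. Dnajc10 averaged 57.6 ± 0.180, 55.1 ± 1.29 and 56.7 ± 1.91 CPM in Taxinine, BSA and Control, and Dnajc1 58.0 ± 0.251, 57.0 ± 1.64 and 57.0 ± 3.01 CPM. Dnajc18 averaged 7.28 ± 0.487, 6.41 ± 1.00 and 7.95 ± 0.883 CPM, and Dnajc25 9.58 ± 1.31, 8.40 ± 1.23 and 8.06 ± 0.132 CPM in the same groups.

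None of the 7 mitochondrial members rose in any comparison, and 3 fell in BSA against Control (Dnaja3, Dnajc4, Dnajc28), beside 16.2% and 17.8% of all genes called higher and lower, with a list median of -0.22 on the log2 fold change scale. Dnajc4 had 11.8, 10.6 and 11.4 CPM in Taxinine, 10.2, 9.14 and 9.82 CPM in BSA and 12.1, 14.7 and 13.3 CPM in Control. Each BSA library was below each Control library, by a log2 fold change of -0.46 ± 0.11 (edgeR adjusted p = 0.000728), and the Taxinine libraries lay in between. Dnajc28 rested on few reads, 6 counts in Taxinine, 10 in BSA and 42 in Control. Its ratio of scaled counts was 0.297 for BSA over Control (95% interval 0.133 to 0.602, counting error only) and 0.203 for Taxinine over Control (0.0705 to 0.480). The other 4 were not called in any comparison on the TMM scale. With plain totals, edgeR called Dnajc11, Dnajc19 and Dnajc30 lower in BSA against Control, at -0.284, -0.257 and -0.553. The median of all genes was -0.23 with these totals. Dnajc11 averaged 41.2 ± 1.39 CPM in Taxinine, 40.5 ± 2.10 in BSA and 42.1 ± 2.44 in Control, and Dnajc19, a part of the import motor of the inner membrane, 14.5 ± 1.57, 15.7 ± 0.885 and 16.1 ± 1.63 CPM. Dnajc15, an inner membrane protein that restrains complex I, averaged 4.93 ± 0.374, 6.05 ± 0.779 and 6.07 ± 1.13 CPM, and Dnajc30 3.88 ± 0.889, 3.43 ± 0.587 and 4.31 ± 0.822 CPM in the same groups.

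On the TMM scale, vesicle and nuclear members mostly held their level. Of 4 vesicle and endosome genes, none was called there in BSA against Control or in Taxinine against BSA. With plain totals, edgeR called Dnajc5 and Dnajc6 lower in BSA against Control, at log2 fold changes of -0.313 and -0.301. The median of all genes was -0.23 with these totals, and 6896 of all 15109 genes were called lower. Dnajc5, the cysteine string protein of secretory vesicles, averaged 161 ± 3.41 CPM in Taxinine, 146 ± 5.69 in BSA and 155 ± 0.959 in Control, and its log2 fold change of 0.14 ± 0.05 for Taxinine against BSA had an edgeR adjusted p of 0.0581 and was called in 5 of 16 alternatives. Dnajc13, an endosomal protein, averaged 92.2 ± 5.26, 82.2 ± 5.20 and 76.2 ± 4.80 CPM in Taxinine, BSA and Control and was called in Taxinine against Control, at a log2 fold change of 0.27 ± 0.06 that was 0.07 with plain totals. Its Taxinine against BSA value, 0.16 ± 0.06, was not called (edgeR adjusted p = 0.0929). Dnajc6, or auxilin, which uncoats clathrin vesicles, averaged 12.6, 13.7 and 14.4 CPM and Dnajc27 3.90, 4.53 and 3.69 CPM in the same groups, with no call on the TMM scale.

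Of the 5 members of the nucleus and ribosome list, Dnajc21, a factor of 60S ribosome assembly, rose in BSA against Control. It averaged 43.2 ± 0.477, 46.1 ± 2.13 and 38.3 ± 2.28 CPM in Taxinine, BSA and Control, a log2 fold change of 0.27 ± 0.06 for BSA against Control that was 0.04 with plain totals. Dnajc2, the ribosome-associated zuotin homologue, Dnajc8 and Dnajc17 of the spliceosome, and Dnajc9, a histone chaperone, were not called in any comparison on the TMM scale. With plain totals, edgeR called Dnajc2, Dnajc8, Dnajc17 and Dnajc9 lower in BSA against Control. Their log2 fold changes there were -0.186, -0.298, -0.365 and -0.264, beside a median of -0.23 over all genes. Dnajc2 averaged 66.5 ± 3.76, 68.1 ± 4.89 and 66.2 ± 2.60 CPM in Taxinine, BSA and Control. Dnajc8 averaged 118 ± 3.36, 114 ± 5.06 and 120.0 ± 3.41 CPM in Taxinine, BSA and Control, Dnajc9 63.2 ± 2.31, 56.9 ± 3.14 and 58.3 ± 1.55 CPM, and Dnajc17 4.82 ± 0.836, 5.07 ± 0.718 and 5.58 ± 0.157 CPM.

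The last 4 class C members belong to none of these lists. Dnajc7, a cytosolic protein that binds both HSP70 and HSP90, had 77.4, 83.0 and 83.6 CPM in Taxinine, 83.7, 86.1 and 86.8 CPM in BSA and 94.1, 98.7 and 99.2 CPM in Control. Control stood above both other groups, and the log2 fold change for BSA was -0.19 ± 0.05 (edgeR adjusted p = 0.00293). Its exons share 441 bases with Cnp and Nkiras2, which were called lower as well, at log2 fold changes of -0.30 ± 0.08 and -0.26 ± 0.10, the call of Nkiras2 being lost in 8 of 16 alternatives. Dnajc12, a co-chaperone of the aromatic amino acid hydroxylases that include the first enzyme of serotonin synthesis, had 2.89, 3.14 and 2.19 CPM in Taxinine, 1.59, 2.21 and 1.55 CPM in BSA and 1.79, 1.79 and 1.57 CPM in Control. One Taxinine library lay within the BSA range, and the call of a rise in Taxinine against Control, 0.65 ± 0.25 (edgeR adjusted p = 0.0378), was lost in 8 of 16 alternatives. Dnajc14 averaged 55.5 ± 2.62, 55.9 ± 2.04 and 59.1 ± 1.00 CPM and Dnajc24, which acts in diphthamide synthesis, 7.63 ± 0.447, 8.38 ± 0.757 and 7.67 ± 0.880 CPM in Taxinine, BSA and Control, with no call on the TMM scale. With plain totals, edgeR called Dnajc14 lower in BSA against Control, at -0.307. Exons shared with another gene of the table touch Dnaja3 (313 bases), Dnajc1 (749), Dnajc14 (1307), Dnajc17 (108), Dnajc19 (178) and Dnajc30 (436) as well.

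Per length of exon, the members spanned more than the fold changes between groups. The levels in this paragraph are means in CPM per kb of the union of annotated exons. Dnajb1 had rank 1 in every group, at 386 ± 15.2 in Taxinine, 279 ± 9.53 in BSA and 57.5 ± 2.43 in Control (SD, n = 3 each). Dnajb9 had rank 2 in Taxinine and BSA, at 105 ± 2.30 and 80.6 ± 3.39, and rank 5 in Control, at 32.3 ± 1.84. Dnaja1 had rank 3 in Taxinine, 6 in BSA and 11 in Control. In Control, Dnajb11 and Dnajc8, at 47.1 ± 0.420 and 47.0 ± 1.33, followed Dnajb1 and overlapped each other, while Dnajb1 stood clear of both. With the longest transcript as length, Dnajc8 came first in Control, at 65.3 against 61.4 for Dnajb1, and 31 of the 41 Control levels moved by more than their SD. The lowest levels were those of Dnajc28 and Dnajb7, at 0.0535 and 0.129 in Taxinine and 0.257 and 0.271 in Control.

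**Figure D4:**
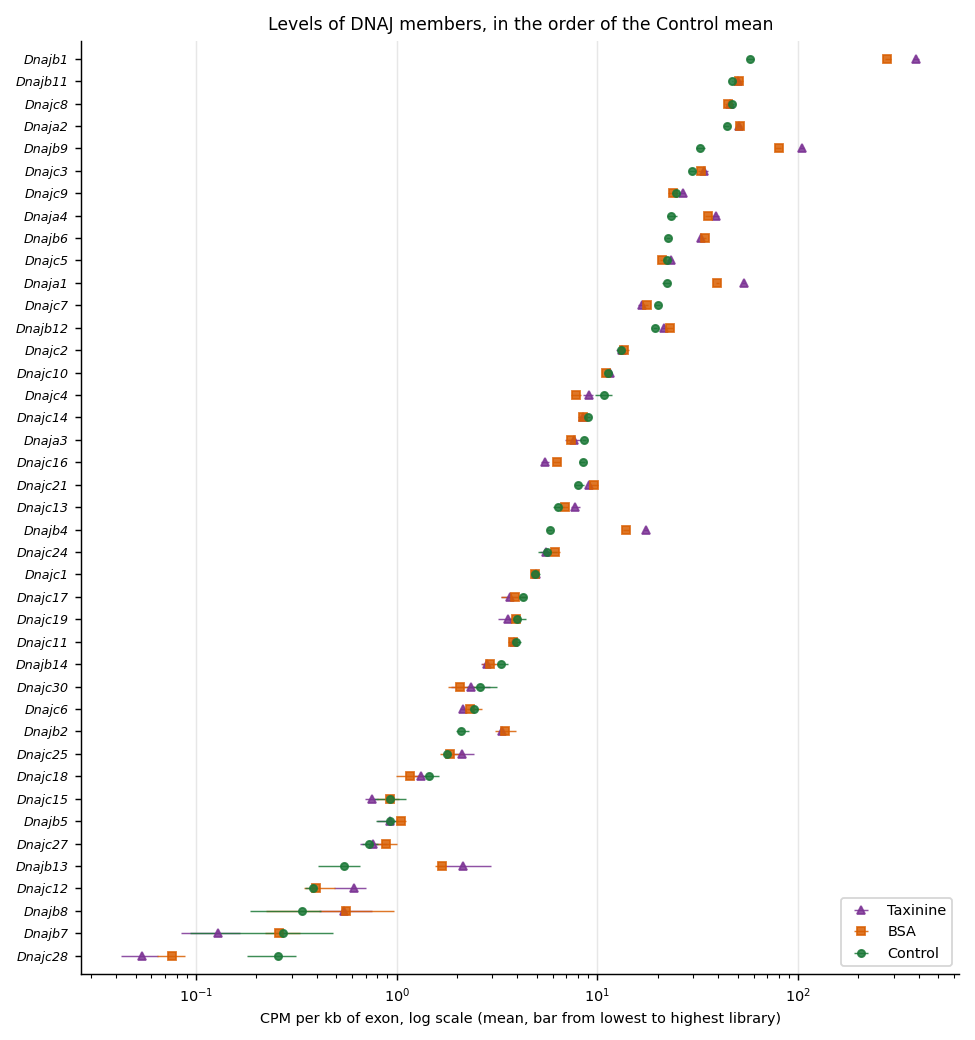
Level of each DNAJ gene (x axis, CPM per kb of exon, log scale) as the group mean with a bar from the lowest to the highest library, ordered by the Control mean. Dnajb1, Dnajb9, Dnaja1 and Dnajb4 show the widest steps between Taxinine, BSA and Control among the genes above 1 CPM per kb in all 3 groups, and most class C genes have their 3 symbols on top of each other.

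The HSP70 chaperones that DNAJ proteins work with were read from a list of HSP70 and HSP110 genes, 13 of them in the table. In BSA against Control 7 rose and 2 fell, beside 16.2% and 17.8% of all genes called higher and lower. In Taxinine against BSA 6 rose and none fell by edgeR's test, beside 2.86% and 4.12% of all genes. Of these calls, the rise of Hspa4 in BSA against Control was lost with plain totals and with limma, and that of Hspa5 in Taxinine against BSA, at 0.13 ± 0.04, in 5 of 16 alternatives. Smallest p-values in BSA against Control belonged to Hspa5, the endoplasmic reticulum chaperone BiP, Hspa8, the constitutive cytosolic HSC70, and Hspa4l, an HSP110 type exchange factor. Hspa5 averaged 2237 ± 88.4 CPM in Taxinine, 2048 ± 94.4 in BSA and 1202 ± 34.0 in Control, and Hspa8 averaged 2377 ± 68.4, 1974 ± 95.1 and 1183 ± 29.3 CPM in the same groups (SD, n = 3 each). Their log2 fold changes for BSA against Control were 0.77 ± 0.04 and 0.74 ± 0.04, and that of Hspa4l was 0.94 ± 0.05.

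The heat-inducible HSP70 genes were not called higher after antigen alone. In Taxinine against BSA the smallest p-values belonged to Hsph1, an HSP110, and to Hspa1b and Hspa1a, the inducible HSP70 genes. Hsph1 averaged 305 ± 13.0 CPM in Taxinine, 159 ± 18.6 in BSA and 200.4 ± 6.59 in Control. It fell in BSA against Control, at a log2 fold change of -0.34 ± 0.05 (edgeR adjusted p = 2.04e-06). In Taxinine against BSA it rose, at 0.94 ± 0.05 (edgeR adjusted p = 2.87e-16). Both comparisons use the same BSA libraries, so a fall in one and a rise in the other are not independent. Hspa1b averaged 431 ± 30.0 CPM in Taxinine, 232 ± 25.3 in BSA and 238 ± 6.35 in Control, and Hspa1a 120.0 ± 10.9, 64.6 ± 7.04 and 72.3 ± 3.02 CPM. Both rose in Taxinine against BSA, at 0.89 ± 0.05 and 0.90 ± 0.06, and in BSA against Control only Hspa1a was called, as lower, at -0.16 ± 0.07, a call lost in 8 of 16 alternatives. These 2 genes are near-identical copies whose reads may be split between them.

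Nucleotide exchange factors, which release clients from HSP70, gave 1 rise and 2 falls among 9 genes in BSA against Control, near the 16.2% and 17.8% of all genes called higher and lower. Bag3, a heat-inducible one, averaged 99.4 ± 2.99 CPM in Taxinine, 67.8 ± 7.47 in BSA and 45.0 ± 0.989 in Control, with log2 fold changes of 0.59 ± 0.06 for BSA against Control and 0.56 ± 0.06 for Taxinine against BSA, the 1 call of the list in that comparison. Grpel2 of the mitochondrion and Bag4 fell in BSA against Control, at -0.71 ± 0.09 and -0.51 ± 0.10. Among J-domain genes with other names, Hscb, Sec63 and Gak were not called in BSA against Control or Taxinine against BSA. Gak, which uncoats clathrin vesicles as auxilin does, rose in Taxinine against Control, at 0.12 ± 0.05, a call lost with plain totals, where it stood at -0.08. Hsf1, the main heat shock factor, averaged 33.4 ± 2.71 CPM in Taxinine, 35.9 ± 3.03 in BSA and 33.8 ± 2.84 in Control and was not called. Hsf2, its relative, averaged 7.67 ± 0.569, 6.21 ± 1.36 and 5.62 ± 1.28 CPM in the same groups and rose in Taxinine against Control, at 0.44 ± 0.16 (edgeR adjusted p = 0.0296), a call lost in 6 of 16 alternatives.

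Promoters of the members were searched for 3 elements on both strands, in RefSeq windows from 250 bases before to 50 bases after each start (GRCm38.p6), which 35 of the 41 members have. The heat shock element of 3 alternating units, GAANNTTCNNGAA, occurs in 0.603% of the 32851 promoters, 0.662% of their 27025 genes and 1 of the 35 members, Dnajb6. The endoplasmic reticulum stress element, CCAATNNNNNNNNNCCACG, occurs in 0.119% of promoters, 0.137% of genes and 1 of the 35 members, Dnajc3. The cyclic AMP response element, TGACGTCA, occurs in 1.79% of promoters, 2.03% of genes and 1 of the 35 members, Dnajc27, which was not called. A shorter heat shock element of 2 units, GAANNTTC or TTCNNGAA, was added after the promoters had been seen. It lies in 17% of genes and in 6 of the 35 members, 17.1%, namely Dnaja1, Dnaja4, Dnajb4, Dnajb6, Dnajc10 and Dnajc27, and it overlaps the longer form. The stretches with a match in called members are shown 5′ to 3′ on the strand of the gene, with the matched letters in capitals.
Dnajb6: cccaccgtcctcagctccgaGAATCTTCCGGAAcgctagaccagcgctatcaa
Dnajb4: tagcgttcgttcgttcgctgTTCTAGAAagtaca
Dnaja1: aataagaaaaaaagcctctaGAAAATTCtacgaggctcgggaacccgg
Dnaja4: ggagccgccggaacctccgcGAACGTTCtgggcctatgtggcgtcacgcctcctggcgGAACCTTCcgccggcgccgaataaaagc
Dnajc3: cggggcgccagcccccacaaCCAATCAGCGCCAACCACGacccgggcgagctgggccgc
They lie at chr5:29735832-29735884 (plus strand) for Dnajb6, chr3:152193846-152193879 (minus strand) for Dnajb4, chr4:40722324-40722371 (plus strand) for Dnaja1, chr9:54699449-54699534 (plus strand) for Dnaja4 and chr14:118937807-118937865 (plus strand) for Dnajc3. The motif of Dnajb6 begins 46 bases before 1 annotated start and 127 bases before another, that of Dnajb4 begins 14 bases before one of its starts, that of Dnaja1 124 bases before 1 of its 3 starts, those of Dnaja4 90 and 52 bases before 1 of its 2 starts, and that of Dnajc3 105 bases before its start. The windows of the other starts of Dnajb4, Dnaja1 and Dnaja4 held no match.

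None of these motifs was found in the windows of Dnajb1 and Dnajb9. A further annotated start of Dnajb1 has its window at chr8:83608298-83608597, which held no match and is not shown. The 250 bases before the upstream start of Dnajb1, at chr8:83607925-83608174 on the plus strand, are shown because no other member rose as far. They carry no capitals since none of the searched motifs is in them.
Dnajb1: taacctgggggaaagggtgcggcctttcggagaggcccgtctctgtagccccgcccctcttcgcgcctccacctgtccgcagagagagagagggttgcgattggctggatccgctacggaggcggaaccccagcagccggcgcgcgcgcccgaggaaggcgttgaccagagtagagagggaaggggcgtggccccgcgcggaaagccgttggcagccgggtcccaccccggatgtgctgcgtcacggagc
A match is a description of letters, and the lack of one says only that these letters are not in this window.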

How the data were processed

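RNA was measured by messenger RNA sequencing in 9 libraries, 3 in each of 3 groups set by the labels. Reads were aligned with STAR 2.7.0f, with the builds mm10 and GRCm38 and limma 3.11 also named, per the submitters' processing notes. The counting program, its annotation and its setting for strand were not given in the sources used here. Whole-number read counts for 15109 genes were deposited by the authors, used as unscaled counts although the table's name speaks of normalised values, and a log2 table that equals log2(CPM + 1) on plain library totals to within 5.0e-05. Of the gene identifiers, 15106 are in GENCODE M21, the source of coordinates, exon lengths and overlaps.

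Calls come from the quasi-likelihood test of edgeR 4.0.16 (R 4.3.3), 1 fit over all 9 libraries with TMM factors, no replicate term and no further filter, and Benjamini-Hochberg adjustment over 15109 genes. The standard error is the absolute log2 fold change divided by the square root of the F value. Alternatives were DESeq2 1.42.0, limma 3.58.1 on the deposited log2 values, RLE factors, plain library totals, at least 10 counts in 3 libraries, only the 2 groups compared, the replicate number as a block, and leaving out each library. The procedure was tested on simulated counts. These had the same dispersion for every gene and no shift in scale between groups, so they do not test the choice of scaling. Levels per kb used the union of annotated exons. Intervals cover counting error only.

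The members and lists were chosen with earlier results of these data known. The rule for named genes gives fold changes for up to 10 called members in each direction of a comparison and values in every library for class A, for called members with an absolute log2 fold change of at least 0.5 after antigen and for those called with taxinine; of other genes, the 3 with the smallest p of a list. Other members with values per library or fold changes were added after their values were seen, and so were Hsf1, Hsf2, Hspa4, the markers named singly and the overlapping neighbours. Some genes that meet this rule are left out.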

Additional observations from a re-analysis of the deposited data

How the results depend on the processing

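The 4 rises with taxinine held under all 16 alternatives. For members called in BSA against Control, plain library totals gave 8 higher and 20 lower, beside 1081 and 6896 of all 15109 genes. There limma on the deposited log2 values gave 8 and 19, beside 1070 and 6782 genes. In Taxinine against BSA, limma called 7 higher, beside 710 genes. In Taxinine against Control, plain totals gave 8 higher and 19 lower, beside 1105 and 6281 genes. For the same comparison limma gave 8 and 18, beside 1122 and 6314 genes. Both alternatives lack the TMM factors, and the median of all genes moves with them. Among members called with TMM factors and genes named from the partner lists, the fold changes that turned sign in BSA against Control were those of Dnajb11 (-0.112 with plain totals, -0.111 with limma), Dnajc3 (-0.070, -0.071) and Dnaja2 (-0.002, -0.002), and in Taxinine against Control those of Dnajb12 (-0.049, -0.048), Dnajc21 (-0.028, -0.025), Dnajc3 (-0.011, -0.009) and Gak (-0.081, -0.083). Leaving out 1 library gave 12 to 13 higher and 4 to 6 lower in BSA against Control, beside 2099 to 2409 and 2342 to 2674 genes. In Taxinine against BSA it gave 4 to 5 higher and 0 lower, beside 231 to 551 and 385 to 730 genes. In Taxinine against Control it gave 11 to 14 higher and 3 to 5 lower, beside 2057 to 2480 and 2153 to 2650 genes. The replicate block gave 12 higher and 6 lower in BSA against Control, beside 2416 and 2662 genes. With this block, Taxinine against BSA had 4 and 0, beside 458 and 635 genes. Taxinine against Control had 14 and 4, beside 2396 and 2576 genes. Deviations of same-numbered libraries from their group means correlated at r from -0.19 to 0.10, and those of other pairs at -0.19 to 0.21. With 3 libraries a group, these values cannot show whether the numbers pair the samples. Members that were not called are outside this list, and several of them also turned sign with plain totals, such as Dnajc13 and Dnajb5. The filter left 39 members. Alternatives for shares of the summed level were chosen after seeing the data. Dnajb1's share was 33.1%, 27.8% and 8.79% with the longest transcript and 30.3%, 25.5% and 7.99% in plain CPM in Taxinine, BSA and Control, and class B's 58.0%, 54.3% and 35.0%, and 53.0%, 49.9% and 32.1%. Without 1 library Dnajb1's share was 37.4% to 38.2%, 31.8% to 32.7% and 10.6% to 10.9%, and class B's 60.7% to 61.6%, 56.7% to 57.4% and 35.6% to 36.2%, in these groups. Depth limits Dnajb7, Dnajb8 and Dnajc28.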
